A study of Mus musculus with 12 samples.

Results

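The first steps of glycolysis were described through 10 genes, chosen by symbol from the deposited table of 56748 genes: Hk1, Hk2, Hkdc1, Adpgk, Gpi1, Pfkl, Pfkm, Pfkp, Pfkfb2 and Tigar. All 10 were found and all 10 passed the filter on low values in each comparison. RNA came from mouse retina. The mice were homozygous for Ribo-Tag, an allele in which Cre recombinase adds an HA tag to a ribosomal protein, and all carried a rhodopsin-Cre transgene that is active in rods. Control mice carried 1 floxed Pkm2 allele (Pkm2 Rodhet, named wt in the sample titles), and Pkm2_Rodko mice carried 2 floxed alleles. Translating ribosome affinity purification (TRAP) with an antibody to HA gave ribosome-bound RNA of rods (the bead samples, called rods here), and the RNA before the pulldown is the input (called retina here). There were 4 groups of 3 libraries: control rods, Pkm2_Rodko rods, control retina and Pkm2_Rodko retina. The controls are therefore heterozygous and not wild type, Cre was present in both genotypes, and cells other than rods kept Pkm2. The deposited description gives an age of 2 weeks and the methods 2 months. No source says which libraries came from separate animals, so p-values measure the spread between these samples, which may be technical.

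Glycolysis begins when a hexokinase traps glucose in the cell by adding a phosphate. Glucose phosphate isomerase then makes the fructose form, and phosphofructokinase adds the second phosphate in the step that commits sugar to the pathway. Both kinase steps exist as isozymes from separate genes, which differ in regulation and in the tissues that use them. Photoreceptors are known for converting much of their glucose to lactate even with oxygen present, and rods are known to contain both Hk1 and Hk2, of which Hk2 is otherwise rare in adult neurons.

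The libraries held 13458890 to 22790074 reads on genes. Of the rod markers, 10 of 10 rose in control rods against control retina (median log2 fold change 1.91). Of the bipolar markers, 9 of 10 fell (median -3.05), and every marker of the lists for cones, Müller glia, amacrine, ganglion, horizontal, pigment epithelium, endothelial and microglial cells fell, with medians from -3.14 to -0.70. None of these markers was at 0 reads in all rod libraries. Pkm, the targeted gene, had deposited values of 51049 to 54504 in control rods and 22246 to 23751 in Pkm2_Rodko rods, with a log2 fold change of -1.20 (adjusted p = 5.36e-05 by limma). In retina its log2 fold change was -0.65 (adjusted p = 0.0219 by limma). No gene was called lower in Pkm2_Rodko retina in 5 of 6 fits that left out 1 library (all but that without control retina replicate 2), with at least 10 reads in every library or with a replicate block, so this call was lost there. The table counts both splice forms of Pkm together.

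The promoters of 4 members are shown as examples. Those of other members, among them Hk1 and Pfkm, which also differed between rods and retina, are not printed. Hk2 and Pfkl had 2 of the 3 largest differences in favour of rods among the 10 genes, Pfkp is the phosphofructokinase that did not pass the test, and Adpgk is the member that fell in Pkm2_Rodko rods. Each run is 300 bases from RefSeq, build GRCm38.p6, covering 250 bases before and 50 bases after the start site on the gene's own strand. The windows are chr6:82774405-82774704 for Hk2 (minus strand), chr10:78009758-78010057 for Pfkl (minus strand), chr13:6648722-6649021 for Pfkp (minus strand) and chr9:59291322-59291621 for Adpgk (plus strand). Capitals mark matches on either strand to TAATCC, a core recognised by the photoreceptor homeodomain factor CRX, and to ACGTG, a form of the hypoxia response element core. The form GCGTG was not searched for and is not marked, so a window without capitals may still hold it. The marked matches do not overlap each other.
Hk2: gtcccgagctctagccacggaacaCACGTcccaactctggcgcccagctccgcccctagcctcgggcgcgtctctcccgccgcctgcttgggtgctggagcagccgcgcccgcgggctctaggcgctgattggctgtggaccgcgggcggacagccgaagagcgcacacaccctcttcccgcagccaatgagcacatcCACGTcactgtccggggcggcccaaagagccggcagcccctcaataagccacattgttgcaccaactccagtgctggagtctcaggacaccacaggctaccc
Pfkl: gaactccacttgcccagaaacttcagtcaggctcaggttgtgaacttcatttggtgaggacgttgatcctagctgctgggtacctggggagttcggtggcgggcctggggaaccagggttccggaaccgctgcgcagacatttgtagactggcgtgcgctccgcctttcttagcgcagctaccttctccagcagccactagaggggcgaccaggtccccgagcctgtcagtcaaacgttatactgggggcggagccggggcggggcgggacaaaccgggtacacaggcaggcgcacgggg
Pfkp: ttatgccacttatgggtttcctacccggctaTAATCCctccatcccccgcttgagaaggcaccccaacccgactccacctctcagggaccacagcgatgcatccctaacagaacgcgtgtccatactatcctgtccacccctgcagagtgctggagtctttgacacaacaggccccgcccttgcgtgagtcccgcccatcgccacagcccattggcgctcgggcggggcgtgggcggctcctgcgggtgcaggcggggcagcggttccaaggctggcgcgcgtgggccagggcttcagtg
Adpgk: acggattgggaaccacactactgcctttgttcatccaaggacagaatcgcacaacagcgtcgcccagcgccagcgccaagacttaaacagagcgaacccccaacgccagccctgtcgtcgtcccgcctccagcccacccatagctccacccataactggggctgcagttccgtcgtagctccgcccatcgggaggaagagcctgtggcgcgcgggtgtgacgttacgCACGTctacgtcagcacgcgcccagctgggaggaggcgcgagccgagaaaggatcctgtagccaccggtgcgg
Counting the start base as 1 and the base before it as -1, Hk2 held ACGTG matches starting at -226 and -52, and Adpgk held 1 at -23. Pfkp held 1 TAATCC match at -219. The Pfkl window held neither set of letters. Some members have several windows, and positions are relative to the start site of each. Among those not printed, Pfkm windows held TAATCC at -75 and ACGTG at -244, -136, -135 and 17. Hk1 windows held ACGTG at 8 and 17, and Pfkfb2 windows at -172, -22 and -21. Of 32851 RefSeq mouse promoter windows, 7.06% held TAATCC and 19.6% held ACGTG. A match is a stretch of letters and was not tested as a binding site.

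Levels of different genes were compared as reads scaled by the trimmed mean of M-values (TMM) over all 12 libraries and divided by the kilobases of all exons of the gene. In control rods Hk1 was the highest of the 10, at 5489.8 ± 1009 reads per kb (SD, n = 3), and Hk2 followed at 5269 ± 459 (SD, n = 3). Their libraries overlapped, so their order is not resolved. Gpi1 came next at 3152 ± 328 (SD, n = 3) and Pfkl at 2221 ± 171 (SD, n = 3), each clear of its neighbours. Pfkfb2 at 486 ± 26.8 and Pfkp at 464 ± 49.5 overlapped (SD, n = 3 each). Tigar at 401 ± 10.9 and Pfkm at 211 ± 23.6 lay below them without overlap (SD, n = 3 each). Adpgk reached 56.7 ± 1.13 and Hkdc1 3.95 ± 0.530 reads per kb (SD, n = 3 each), so the 10 genes span more than 3 orders of magnitude on this scale.

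In control retina the order on the per-kb scale differed at several places. Gpi1 was first at 1940.5 to 1972 reads per kb. Below it lay Hk1 at 1716 ± 151 and Hk2 at 1585 ± 280.4, whose libraries again overlapped (SD, n = 3 each). Pfkl followed at 866 ± 71.1 and then Pfkm at 627 ± 32.9, which was ninth of the 11 genes ranked with Pkm in control rods and sixth here (SD, n = 3 each). Pfkp was at 448 ± 36.6, Pfkfb2 at 292 ± 42.9 and Tigar at 218 ± 16.0 (SD, n = 3 each), with no overlap between neighbours. Adpgk at 34.0 ± 1.92 and Hkdc1 at 18.8 ± 3.30 were lowest (SD, n = 3 each). These levels depend on the length used. All exons of Hk1 add up to 8532 bases and its longest transcript to 4278 bases, while the values for Hk2 are 5969 and 5513 bases.

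**Figure D1:**
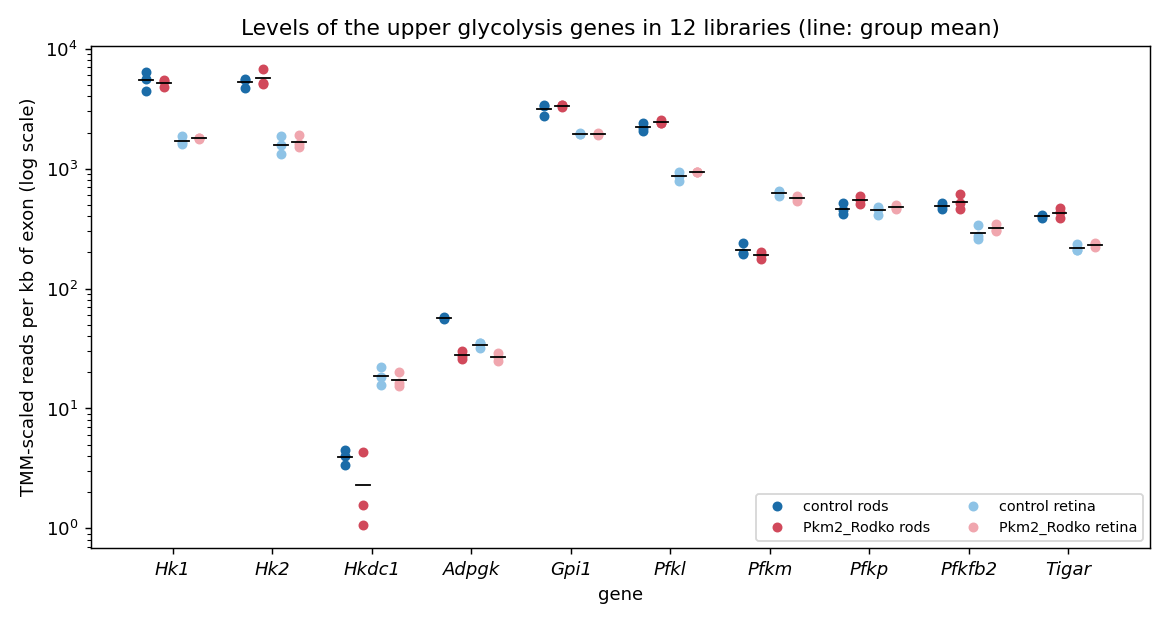
Level of each gene in each library, as TMM-scaled reads per kb of exon on a log axis, with 3 points and a line at the mean for each of the 4 groups. Hk1 and Hk2 sit near the top of both rod groups at 4418 to 6813 reads per kb and fall between 1318 and 1916 in retina, while Pfkm and Hkdc1 are higher in retina than in rods.

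Rods were compared with retina to ask which isozymes rods favour. In control mice 7 of the 10 genes rose in rods (Hk1, Hk2, Adpgk, Gpi1, Pfkl, Pfkfb2 and Tigar), 2 fell (Hkdc1 and Pfkm) and Pfkp did not pass the test. Over all 25584 genes tested, 23.5% rose and 35.5% fell in this comparison. In Pkm2_Rodko mice 6 genes rose, Hkdc1 and Pfkm fell, and Adpgk and Pfkp did not pass, against 23.9% of all genes that rose and 35.1% that fell. The median log2 fold change of the 10 genes was 0.74 in control and 0.75 in Pkm2_Rodko mice, beside -0.37 and -0.32 over all genes. This background depends on the filter on low genes. Among the 12918 genes with at least 10 reads in every library, the medians were 0.24 in control and 0.26 in Pkm2_Rodko mice. Of these, 5912 rose and 3614 fell in control mice, and 6065 rose and 3586 fell in Pkm2_Rodko mice. The comparison sets ribosome-bound RNA of rods against total RNA of the retina, so binding to ribosomes and cell type cannot be told apart. In such bulk samples, fewer cells of a type and less RNA per cell cannot be told apart either.

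These sizes move with the scaling that joins the fractions. TMM gave a median over all genes of -0.37 in control, median-of-ratios factors over the 12 libraries gave -0.42, and scaling to total reads gave -0.76. With total reads 14.7% of the genes called in control were higher in rods, beside 39.8% with TMM. Relative to the median of all genes, Hk1 was higher by 2.03 with TMM and by 1.87 with total reads in control mice, Hk2 by 2.11 and 1.95, and Pfkl by 1.73 and 1.57 on the log2 scale. These distances depend on the filter. With at least 10 reads in every library, the TMM median in control mice was 0.24 in place of -0.37. Hk1, Hk2, Pfkl and Tigar rose and Pfkm and Hkdc1 fell under all 4 scalings in both genotypes. The calls for Adpgk, Gpi1 and Pfkfb2 in control mice were lost with total reads and with the deposited values. In Pkm2_Rodko mice that for Pfkfb2 was lost under both, and that for Gpi1 with the deposited values.

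**Figure D2:**
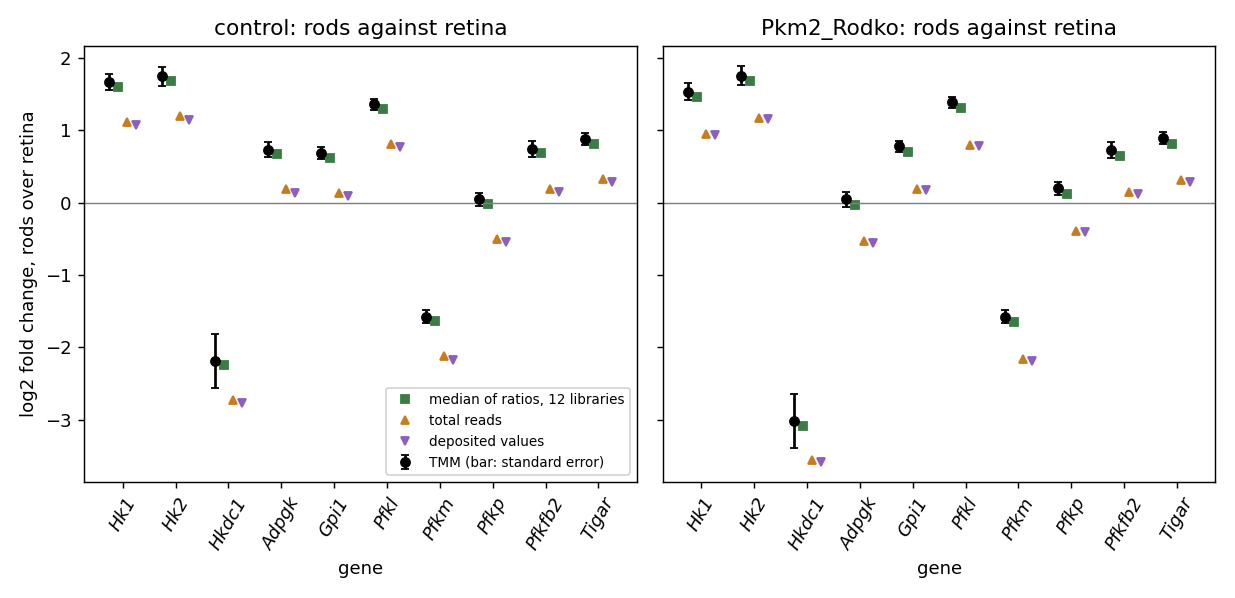
Log2 fold change of rods over retina for the 10 genes in control and Pkm2_Rodko mice under 4 scalings of the fractions, with the standard error for TMM. Hk1, Hk2, Pfkl and Tigar stay above 0 and Pfkm and Hkdc1 below 0 under all 4, while Pfkp moves from 0.05 with TMM to -0.50 with total reads in control mice.

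The hexokinases that bind mitochondria, Hk1 and Hk2, were both abundant in rods. Levels of Hk1 were 5629, 4418 and 6422 reads per kb in control rods and 1664, 1598 and 1886 in control retina. Every rod library was above every retina library. On the log2 scale, used for all differences here with SE for standard error, this was 1.66 (SE 0.113, 3.17-fold, adjusted p = 5.19e-09 by limma). Hk2 had 4745, 5464 and 5599 reads per kb in control rods and 1318, 1877 and 1561 in control retina. These libraries did not overlap, and the log2 fold change was 1.74 (SE 0.135, 3.35-fold, adjusted p = 2.18e-08 by limma). In Pkm2_Rodko mice Hk1 had 5463, 4789 and 5349 reads per kb in rods and 1805, 1774 and 1796 in retina. Hk2 had 5133, 5180.0 and 6813 in rods and 1618, 1512 and 1916 in retina. Again neither gene's libraries overlapped, with log2 fold changes of 1.53 for Hk1 and 1.76 for Hk2 (adjusted p = 1.09e-08 and 1.70e-08 by limma).

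Of the summed reads per kb of Hk1, Hk2, Hk3 and Hkdc1, Hk1 made up 50.8% ± 5.29 and Hk2 49.2% ± 5.28 in control rods (SD, n = 3 each). In control retina the shares were 51.9% ± 5.30 and 47.6% ± 5.42 (SD, n = 3 each). With the longest transcript as length, the Hk1 share in control rods was 65.4% ± 4.87, and without division by length 59.5% ± 5.15 (SD, n = 3 each). The near balance of the 2 genes therefore depends on the length. The ratio of Hk2 to Hk1 reads within a library does not depend on scaling, and lengths cancel when it is compared between groups. On the log2 scale it averaged 0.15 more in rods than in retina over 6 libraries each, and the fractions overlapped (two-sided exact permutation test, p = 0.281, adjusted p = 0.422 over 12 ratio tests). Rod and retina libraries of the same genotype and number deviated together across genes. When they were treated as pairs, the ratio was higher in rods in 6 of 6 pairs (exact sign-flip test, unadjusted p = 0.0312, the smallest that 6 pairs allow, for the same mean difference of 0.15). This p was not adjusted over the ratio tests, so no call is made from it.

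Hkdc1, a putative further hexokinase, was scarce. Its reads in the 3 libraries numbered 14, 22 and 11 for control rods and 113, 90 and 158 for control retina. It fell by 2.19 on the log2 scale (SE 0.379, adjusted p = 0.000126 by limma), and in Pkm2_Rodko mice it fell by 3.02 (adjusted p = 4.36e-06 by limma). Its share of the reads per kb of the 4 genes was 0.0372% ± 0.00782 in control rods and 0.568% ± 0.102 in control retina (SD, n = 3 each). Hk3 did not exceed 0.0511% of them in any control library. The markers of the non-rod cell types fell in the same libraries, and their part in the lower Hkdc1 was not tested.

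Gpi1, the isomerase between the kinase steps, had 3314, 2774 and 3368 reads per kb in control rods and 1972, 1945 and 1940.5 in control retina. The fractions did not overlap, and the log2 fold change was 0.69 (SE 0.0774, adjusted p = 1.52e-06 by limma). In Pkm2_Rodko mice it was 0.78 (adjusted p = 3.22e-07 by limma). With total reads the values were 0.13 in control, which did not pass (adjusted p = 0.101 by limma), and 0.19 in Pkm2_Rodko mice, which did (adjusted p = 0.0226 by limma).

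The 3 phosphofructokinase genes diverged between the fractions. Pfkl, the liver-type isozyme, had 2170.3, 2081 and 2412 reads per kb in control rods and 792, 872 and 934 in control retina. It rose by 1.36 on the log2 scale (SE 0.0769, 2.57-fold, adjusted p = 7.14e-10 by limma) with no overlap. Pfkm, the muscle-type isozyme, had 199, 238 and 196 reads per kb in control rods and 656, 634 and 591 in control retina. It fell by 1.57 on the log2 scale (SE 0.0894, adjusted p = 7.35e-10 by limma), again with no overlap. Pfkp, the platelet-type isozyme, had 456, 419 and 517 in control rods and 408, 478 and 459 in control retina. These libraries overlapped and differed on the log2 scale by 0.05 (SE 0.0890, adjusted p = 0.660 by limma).

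In Pkm2_Rodko mice Pfkl rose by 1.38 and Pfkm fell by 1.58 on the log2 scale (adjusted p = 4.56e-10 and 5.58e-10 by limma). Pfkp had 546, 503 and 586 reads per kb in Pkm2_Rodko rods and 495, 461 and 469 in Pkm2_Rodko retina. All 3 rod values were above the retina values, a log2 fold change of 0.20 that did not pass (adjusted p = 0.0689 by limma). With same-numbered rod and retina libraries as a replicate block it passed (log2 fold change 0.20, adjusted p = 0.0281 by limma). The direction of Pfkp turned with the scaling, to -0.50 in control and -0.39 in Pkm2_Rodko mice with total reads (adjusted p = 6.72e-05 and 0.000707 by limma).

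Shares of the family show the same divergence without a common scale. In control rods Pfkl held 76.7% ± 0.612 of phosphofructokinase reads per kb, Pfkp 16.0% ± 0.632 and Pfkm 7.33% ± 1.24 (SD, n = 3 each). In control retina the shares were 44.6% ± 2.25 for Pfkl, 23.1% ± 1.07 for Pfkp and 32.4% ± 2.80 for Pfkm (SD, n = 3 each). In Pkm2_Rodko rods Pfkl held 76.9% ± 1.03, and in Pkm2_Rodko retina 47.4% ± 0.123 (SD, n = 3 each). Without division by length, Pfkl held 68.2% ± 0.220 in control rods and 41.6% ± 1.56 in control retina (SD, n = 3 each), and Pfkp then exceeded Pfkl in control retina at 43.3% ± 1.28 (SD, n = 3).

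**Figure D3:**
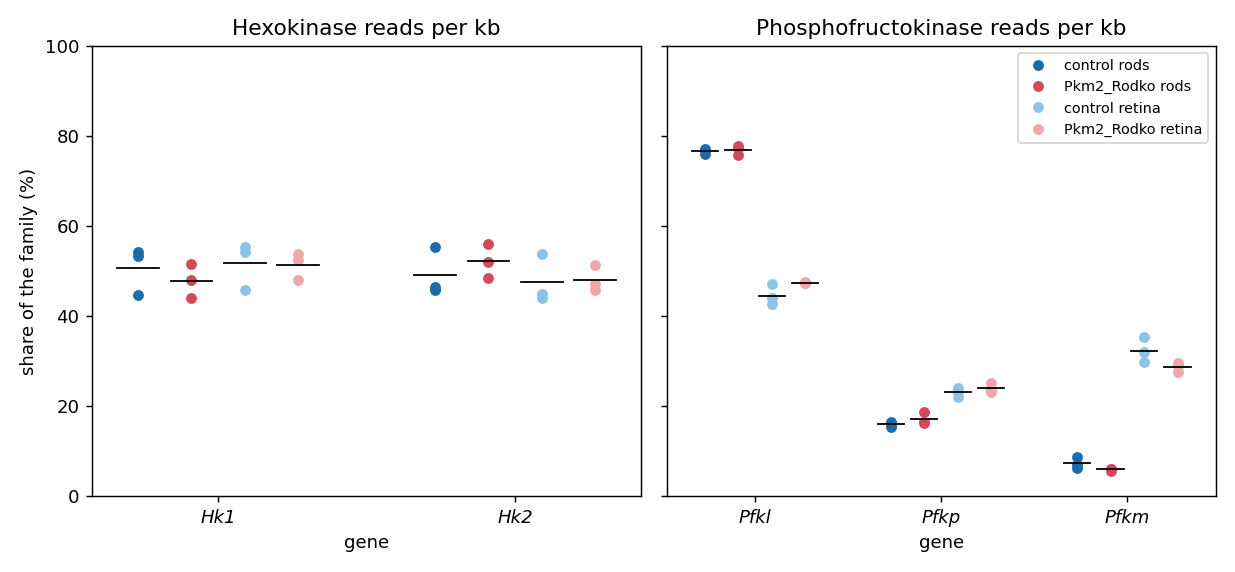
Share of each isozyme in the reads per kb of its family in each library, in percent, with a line at the mean of each of the 4 groups (hexokinase shares are of Hk1, Hk2, Hk3 and Hkdc1, of which the last 2 are not drawn). Hk1 and Hk2 lie between 43.9% and 56.0% in all 12 libraries, while Pfkl is at 75.7% to 77.7% in rods and at 42.7% to 47.5% in retina.

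Ratios within a library gave the same picture for phosphofructokinase. The Pfkl to Pfkm ratio was 2.95 higher in rods on the log2 scale (7.73-fold), the Pfkp to Pfkm ratio 1.70 higher (3.25-fold) and the Pfkl to Pfkp ratio 1.25 higher (2.38-fold). In all 3 ratios the 6 rod values lay above the 6 retina values. The two-sided p of an exact permutation of libraries was 0.00216 for each, which 6 against 6 cannot go below (adjusted p = 0.00866 over 12 ratio tests). This permutation treats the 12 libraries as independent, although same-numbered rod and retina libraries deviated together. An exact test of the 6 pairs could not reach so small a p. Within control mice alone the 3 differences were 2.94, 1.62 and 1.31, and within Pkm2_Rodko mice 2.97, 1.78 and 1.19. Each of these had an exact permutation p of 0.1, the smallest that 3 libraries against 3 allow.

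**Figure D4:**
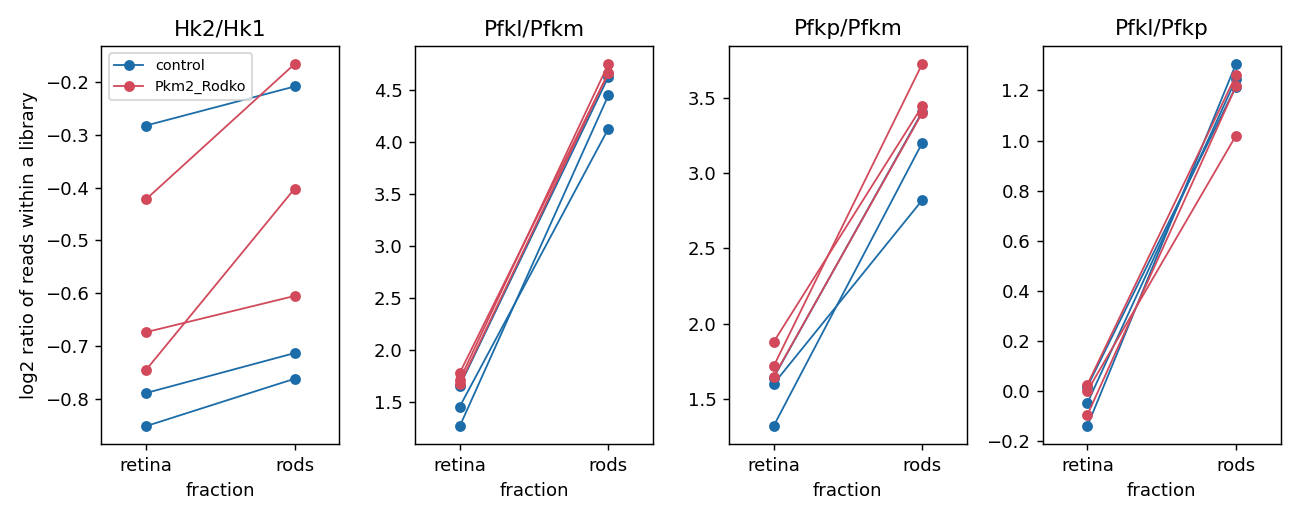
Log2 ratio of reads of 2 isozymes within a library, in retina and rods, with a line joining libraries of the same genotype and number (each panel has its own vertical scale). The 3 phosphofructokinase ratios separate rods from retina, by 2.95, 1.70 and 1.25 on average, while Hk2 to Hk1 differs by 0.15 and overlaps.

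Pfkfb2 and Tigar act on the sugar bisphosphate that activates phosphofructokinase. Pfkfb2 makes and degrades it, and Tigar is a p53-inducible phosphatase that lowers it. Pfkfb2 had 459, 513 and 485 reads per kb in control rods and 258, 340.1 and 277 in control retina. It rose by 0.74 on the log2 scale (SE 0.111, adjusted p = 3.08e-05 by limma). Tigar had 410.0, 405 and 389 reads per kb in control rods and 208, 237 and 210.1 in control retina, and it rose by 0.88 (SE 0.0853, adjusted p = 2.73e-07 by limma). Neither gene overlapped between the fractions. With total reads the log2 fold change of Pfkfb2 was 0.19 (adjusted p = 0.149 by limma) and that of Tigar 0.33 (adjusted p = 0.00393 by limma).

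Of the 4 genes of the Pfkfb family, Pfkfb2 held 82.0% ± 2.55 of the reads per kb in control rods and 66.0% ± 0.814 in control retina (SD, n = 3 each). Pfkfb3 held 9.15% ± 1.70 in control rods and 22.5% ± 0.751 in control retina (SD, n = 3 each), and it fell in rods by 0.88 on the log2 scale (adjusted p = 0.00011 by limma). Yod1 lies inside Pfkfb2 and the antisense gene Hk1os inside Hk1 by RefSeq. Yod1 had 189 to 413 reads in rod libraries and 691 to 946 in retina libraries, and Hk1os had 11 to 43 reads in the 12 libraries. The sources used here do not say whether counting used strand, so reads of these partners may not be separable.

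The other genes of the upper pathway and its branches did not share one direction. Over all genes tested with TMM, 23.5% rose and 35.5% fell in control rods, with a median of -0.37 on the log2 scale. Among genes with at least 10 reads in every library the median was 0.24. Of 19 listed, 16 were tested in control mice, and 5 rose and 6 fell in rods, with a median of -0.25 on the log2 scale. With total reads 1 rose, G6pdx, and 9 of 17 tested fell. G6pdx, the entry enzyme of the pentose phosphate pathway, rose by 0.99 (adjusted p = 7.18e-09 by limma), while H6pd, its counterpart in the endoplasmic reticulum, fell by 2.59 on the log2 scale (adjusted p = 8.55e-07 by limma). Pgm2l1, which makes glucose bisphosphate, fell by 0.87 (adjusted p = 6.83e-06 by limma). Of the 11 entries of the lower pathway from aldolase to lactate dehydrogenase, 8 rose and 2 fell, with a median of 1.04. With total reads 6 rose (Ldha, Aldoa, Gapdh, Eno1, Pgam1 and Pgk1) and 5 fell, and the median was 0.49. Ldha, which makes lactate from pyruvate, rose by 1.55 with TMM and also rose with total reads. The fall of 0.71 (adjusted p = 0.0207 by limma) belonged to a second entry named Aldoa, and Eno2, the neuronal enolase, fell by 0.23 (adjusted p = 0.00717 by limma). Of 7 listed partners and regulators, 3 rose, namely Hif1a by 1.11, Vdac2 by 0.83 and Slc2a1 by 0.72 on the log2 scale (adjusted p = 4.26e-07, 2.15e-07 and 1.68e-05 by limma), and 3 fell (Vdac1, Trp53 and Myc). Slc2a1, the glucose transporter of photoreceptors and pigment epithelium, was at 0.17 with total reads and did not pass (adjusted p = 0.192 by limma).

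Genotypes were compared within rods to ask how the pathway differed between Pkm2_Rodko and control mice. In rods 1 of the 10 genes, Adpgk, fell in Pkm2_Rodko mice and none rose, against 0.0194% of all 20658 genes tested, or 4 genes. The paper already lists Adpgk among the genes lower in Pkm2_Rodko rods, and the 10 genes were chosen with earlier results known. The count beside that share is therefore a description only. Adpgk encodes the ADP-dependent glucokinase, which phosphorylates glucose with ADP in place of ATP. Its deposited values were 419, 424.6 and 431 in control rods and 225, 207 and 196 in Pkm2_Rodko rods. The means were 425 ± 6.16 and 209 ± 14.5 (SD, n = 3 each), and the genotypes did not overlap. The log2 fold change was -1.02 (SE 0.118, 0.493-fold, adjusted p = 0.00712 by limma), the third smallest p-value in rods. The reads behind these values numbered 327, 582 and 350 in control rods and 222, 193 and 248 in Pkm2_Rodko rods.

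The call for Adpgk was sensitive to the model, while its size was not. EdgeR on recovered reads gave an adjusted p of 0.00687 and DESeq2 2.43e-08. Limma without the variance trend gave 0.1825. Fits that left out 1 library gave log2 fold changes of -1.07 to -0.97. The adjusted p was 0.0198 without Pkm2_Rodko rods replicate 1, and 0.0995, 0.0853 and 0.0555 without control rods replicates 1, 2 and 3. It was 0.0731 and 0.0906 without Pkm2_Rodko rods replicates 2 and 3, so 5 of the 6 fits did not pass.

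In retina none of the 10 genes passed the genotype test, against 0.00391% of all 25590 genes tested, or 1 gene. An unadjusted p under 0.05 was seen for 1 member and for 4.18% of all genes, and edgeR and DESeq2 also called 0 members. That member was Adpgk, with deposited values of 397, 362 and 398 in control retina and 283, 333 and 309 in Pkm2_Rodko retina. The genotypes did not overlap, and the log2 fold change was -0.33 (SE 0.108, adjusted p = 0.947 by limma). The genotype effect in rods minus that in retina was -0.69 for Adpgk (SE 0.146, adjusted p = 0.978 by limma), the sixth smallest p-value among 25584 genes. The adjusted p of Adpgk was 0.131 with DESeq2 and 0.984 with edgeR. None of the 10 genes passed that test, beside 0% of all genes. An unadjusted p under 0.05 was seen for 1 of the 10 and for 1128 of all genes. EdgeR called 0 of all genes and DESeq2 1, which was not a member.

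**Figure D5:**
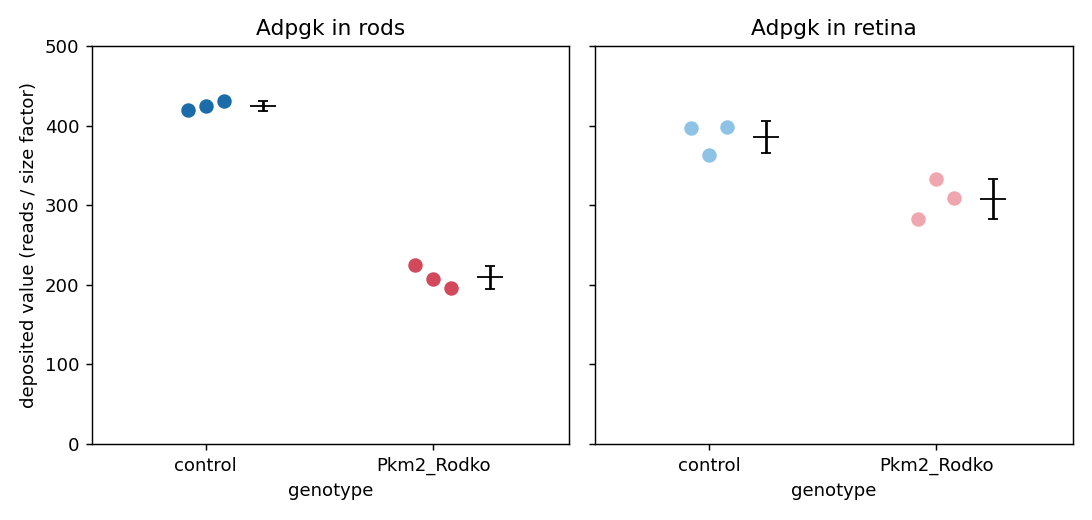
Deposited value of Adpgk (reads divided by a size factor) in each library by genotype, in rods and in retina, with the mean and SD of 3 libraries beside the points. The rod values are 419 to 431 in control and 196 to 225 in Pkm2_Rodko mice, and the retina values 362 to 398 and 283 to 333. Rods and retina were scaled separately, so values are comparable within a panel only.

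The lower Adpgk in rods also appeared in the comparison of fractions. On the common scale Adpgk had 55.7, 56.4 and 57.9 reads per kb in control rods and 35.3, 31.8 and 35.0 in control retina, a rise of 0.73 on the log2 scale (SE 0.103, adjusted p = 1.55e-05 by limma). In Pkm2_Rodko mice it had 30.1, 27.3 and 26.0 in rods and 24.8, 29.1 and 26.6 in retina, which overlapped (log2 fold change 0.05, adjusted p = 0.711 by limma). With total reads the log2 fold changes were 0.19 in control (adjusted p = 0.156 by limma) and -0.53 in Pkm2_Rodko mice (adjusted p = 0.000508 by limma). These comparisons share libraries with the genotype comparison.

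Adpgk lies within 1 Mb of Pkm by RefSeq. Of 37 RefSeq genes in that window, 28 were in the table and 20 were tested in rods. Adpgk was the only one of the 20 that passed, and 14 of the 20 had a positive log2 fold change, with a median of 0.08. Of the other genes, only Neo1 had an unadjusted p under 0.05 (log2 fold change 0.29, adjusted p = 0.932 by limma). In retina 23 were tested and 0 passed by limma, and Adpgk was the only one with an unadjusted p under 0.05. The genotypes differ in the number of floxed Pkm2 alleles. Loss of Pkm2 and other differences carried near the floxed allele therefore cannot be told apart here. None of the cell type markers passed the genotype test in rods by limma. The median log2 fold change was -0.35 over 10 bipolar markers, of which 9 were lower, and -0.38 over 8 Müller markers, of which 8 were lower. It was -0.43 for ganglion cells (6 of 6 lower), -0.46 for amacrine cells (5 of 6), -0.47 for microglia (3 of 4), -0.35 for horizontal cells (2 of 3) and -0.10 for cones (6 of 8). It was 0.01 for pigment epithelium (2 of 4 lower), 0.25 for endothelium (1 of 3) and 0.06 for rods (1 of 10). The summed scaled reads of the Müller markers ranged from 8959 to 11653 in control rods and from 7712 to 9185 in Pkm2_Rodko rods. The part of these cells in the Adpgk difference was not tested.

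The other 9 genes did not pass the genotype test in rods. Hk1 had a log2 fold change of -0.06 (SE 0.122) and Hk2 of 0.11 (SE 0.116), with adjusted p-values of 0.959 and 0.932 by limma. Pfkl had deposited values of 11338.5, 10892 and 12480.2 in control rods and 13234, 12743 and 12539 in Pkm2_Rodko rods. All 3 Pkm2_Rodko values were above the control values, by 0.15 on the log2 scale (SE 0.0827, adjusted p = 0.932 by limma). Over all genes, 9.89% did not overlap between the genotypes in rods and 9.29% in retina. Among the 10 genes these were Pfkl and Adpgk in rods and Adpgk in retina. Pfkp had an unadjusted p of 0.0234 in rods with a log2 fold change of 0.24, and its libraries overlapped (adjusted p = 0.932 by limma). Hkdc1 had deposited values of 17.9, 16.0 and 13.6 in control rods and 17.2, 4.3 and 6.3 in Pkm2_Rodko rods, which overlapped. Its log2 fold change of -0.91 (SE 0.481, adjusted p = 0.932 by limma) was the largest of the 9, at 4 to 22 reads a library.

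The remaining members had small differences by genotype. In rods the log2 fold changes were 0.10 for Gpi1, -0.14 for Pfkm, 0.13 for Pfkfb2 and 0.11 for Tigar. In retina those of the 9 genes other than Adpgk lay between -0.13 and 0.15, with adjusted p-values of 0.947 to 0.982 by limma. The isozyme ratios were compared by genotype as well. The Pfkl to Pfkm ratio was 0.29 higher on the log2 scale in Pkm2_Rodko rods and 0.26 higher in Pkm2_Rodko retina, with no overlap in either. Exact permutation gave a two-sided p of 0.1 for each, which 3 against 3 cannot go below (adjusted p = 0.2). The Hk2 to Hk1 ratio differed by 0.17 in rods and 0.03 in retina (two-sided exact permutation test, p = 0.5 and 0.9). Of the listed other genes of the upper pathway, 0 of 15 tested in rods passed, and 0 had an unadjusted p under 0.05. Of the 11 lower pathway entries, 0 passed and 0 had an unadjusted p under 0.05 by limma. Of these entries 9 had a positive log2 fold change, and the median of the 11 was 0.16, beside 0.006 over all genes.

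Genes whose level over the 12 libraries was most like that of 4 members were found by Pearson correlation of log2 scaled reads among 11137 genes. The 12 libraries fall into 2 genotypes and into 2 fractions, and the fractions differ in many genes at once, so the correlation is a description. For Hk1 these included Mfge8 (r = 0.997) and Sec14l1 (r = 0.996). For Hk2 they were Mpp4 (r = 0.995), Rp1l1 (r = 0.995) and Crlf3 (r = 0.995). For Pfkfb2 they were Atp8a2 (r = 0.995), Frmd4b (r = 0.991) and Map4k3 (r = 0.989). The genes most like Adpgk had lower values, with Gm6560 (r = 0.921), Pkm (r = 0.919) and Lrrc42 (r = 0.886). The paper lists Gm6560 as a pseudogene of Pkm, the targeted gene, so Gm6560 and Pkm may not be separate matches.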

How the data were processed

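RNA of retina before (input) and after (rods) TRAP was sequenced in 12 libraries. The authors deposited 1 table whose signal values are reads over a size factor of the library, kept to 1 decimal. The submitters' processing notes name CASAVA 1.8.2, HISAT2, DESeq2, edgeR and the build GRCm39, without their roles. The size factors equal medians of ratios within each fraction, so rods and retina were scaled separately. Dividing by the value of 1 read gave whole reads for 100% of positive values, within 0.1 read plus the rounding of the table. All per-sample columns were used. Depth was 13458890 to 22790074 reads, and replicates all differed by more than sampling noise (lowest chi-square per gene 7.16).

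Genotypes were compared within a fraction by limma 3.58.1 (R 4.3.3) with a variance trend on log2(value + 1), which understates changes of low genes. Genes with a mean of at least 1 in 1 group were tested. Rods were compared with retina, and genotype effects between fractions, in 1 limma fit of recovered reads scaled by TMM. Adjustment over all genes followed Benjamini-Hochberg, with a threshold of 0.05. Limma comparisons of genotype in rods, of control rods with control retina and of genotype effects between fractions were tried on simulated data. Libraries were simulated as independent, with the same dispersion for all genes. The other comparisons and tests were not simulated. EdgeR 4.0.16 quasi-likelihood and DESeq2 1.42.0 on recovered reads, other scalings, filters and pseudocounts, a replicate block and leaving out each library were alternatives. Scalings of the lists of other pathway genes were added after seeing the data. Isozyme ratios were compared by exact permutation. Gene lengths came from GENCODE vM21 and promoters and neighbours from RefSeq GRCm38.p6, whose build differs from the submitters', so no other coordinates are given. Same-numbered rod and retina libraries of a genotype deviated together in 6 of 6 pairs (correlation of deviations from group means over 11137 genes, 0.29 to 0.59). These pairs were used only in the replicate block alternative and in the exact sign-flip test of a ratio. The main fits of rods against retina and the main ratio tests did not use them. Numbers shared by the 2 genotypes were not taken to mark pairs. Named genes were the 10 members, Pkm, fixed lists of other pathway genes, the 3 genes most like Hk1, Hk2, Adpgk and Pfkfb2, and genes near Pkm. Some named genes are not reported here. Members and lists were chosen with earlier results of these data known. Python 3.11.15, pandas 2.3.3 and matplotlib 3.10.9 were used for tables and figures.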

Additional observations from a re-analysis of the deposited data

How the results depend on the processing

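Precision is set by 3 libraries a group. Among results that answer a comparison, 232 of their values under alternatives were labelled the same, 16 moved, 6 lost a call and 1 went below 0.05 before adjustment. For a test, the same meant an unchanged direction and call. For a count it meant a value within a set factor of the main count, and for a description a shift below the SD. In rods the count of members called by genotype was 0 without the variance trend and 0 to 1 with 1 library left out. In control mice the count of members higher in rods was 4 with total reads and 4 with the deposited values, beside 7. In Pkm2_Rodko mice the count lower in rods was 4 under both scalings, beside 2. With at least 10 reads in every library the counts of members lower in rods were 1 in control and 1 in Pkm2_Rodko mice, since Hkdc1 was no longer tested. The log2 fold change of Pfkp in rods against retina reversed with total reads and with the deposited values, to -0.50 and -0.55 in control and -0.39 and -0.41 in Pkm2_Rodko mice. That of Adpgk in Pkm2_Rodko mice reversed to -0.53 and -0.55. These shifts come from the scaling itself, which moves all genes. Ratio differences between rods and retina within 1 genotype cannot pass the threshold with 3 libraries against 3. They were 2.94 (control) and 2.97 (Pkm2_Rodko) for Pfkl/Pfkm, 1.62 and 1.78 for Pfkp/Pfkm, and 1.31 and 1.19 for Pfkl/Pfkp. With a replicate block, that of Hk2/Hk1 stayed at 0.15 with an unadjusted exact p of 0.0312, Pfkp passed in Pkm2_Rodko mice, and no other call of a member between rods and retina changed. With 1 library left out, the genotype difference in retina was -0.0779 to 0.21 for Hk2/Hk1 and -0.00811 to 0.0706 for Pfkl/Pfkp. The genotypes share only replicate numbers (correlations of deviations -0.30 to 0.07), and a block on them left the rod count at 1 and moved the calls among all genes from 4 to 8. DESeq2 called 7, 1 fit of all 12 libraries 18, limma without the trend 0, and fits without 1 library 2 to 6. The scalings of the lists of other genes were chosen after seeing the data.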
